A study of Mus musculus with 10 samples.

Results

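The vomeronasal type 2 receptor (Vmn2r) genes are the mouse protein-coding genes of the RefSeq annotation of build mm10 whose symbol starts with Vmn2r, and 124 of 21887 protein-coding genes (0.567%) met that rule. Windows were placed for 123 of them, because the table gives Vmn2r122 a position below the first called peak of its chromosome. The window of a gene was its span with 10 kb on each side, and the joined windows of the family covered 5.57 Mb, of which 57.6% lay inside gene spans. The genes sit in 18 clusters on chromosomes 3, 4, 5, 6, 7, 10, 14, 17 and X.

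Vmn2r genes encode receptors of sensory neurons in the basal layer of the vomeronasal organ, the accessory smell organ that detects pheromones. They are class C G protein-coupled receptors with a large extracellular domain that binds peptides and proteins, and they signal through the G protein subunit Gnao1 and the channel Trpc2. A basal neuron expresses 1 or few of the variable receptors together with a member of a small conserved group, Vmn2r1 to Vmn2r7. The receptors are known for expression in these neurons and not for a role in most other tissues, so peaks called at them can serve as a gauge of calls outside the genes that a cell uses. In the thymus, medullary epithelial cells are known to transcribe many genes of other tissues at low levels, so silence of the family there was not assumed.

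Open chromatin was profiled by ATAC-seq, an assay that uses a transposase to cut and tag accessible DNA. The cells were thymic epithelial cells (TEC) sorted from C57BL/6 mice with a wild-type genotype, within a study of how Foxn1, the master regulator of the thymus, is regulated. The groups were TEC at day 6 in the fractions titled mTEC4, mTEC1 and mTEC2, and TEC at embryonic day 15 (E15) and embryonic day 17 (E17), with 2 peak lists each and the same strain and genotype throughout. Fractions are named here by the titles, but the peak names inside the lists carry other tags, aTEC for mTEC4, eTEC for mTEC1 and Hi for mTEC2, and the embryonic lists carry the tag hi. How the tags relate to the titled fractions is not known, so each value by fraction rests on the titles. The titles name no fraction for the embryonic TEC, so age and fraction cannot be told apart in a comparison of the 6 day 6 lists with the 4 embryonic lists. Nothing in the labels says that the 2 lists of a group came from separate animals, so p-values measure the spread between these lists, which may be technical.

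The day 6 lists held 40858 to 101917 peaks and the embryonic lists 86237 to 151646, and the shortest was mTEC2 replicate 2. The depth of sequencing behind the lists is unknown, because they hold no counts of reads, and a gene without a peak is a gene at which none was called. Among 8 TEC markers, Epcam and Krt8 had a peak within 1 kb of a gene end in all 10 lists. Pax1 and Cldn4 each had one in 5 of 6 day 6 lists and 4 of 4 embryonic lists. The day 6 and embryonic numbers were 3 and 4 for Psmb11, 1 and 4 for Krt5, 0 and 3 for Trp63 and 0 and 4 for Foxn1. The leukocyte gene Ptprc had no such peak in any list, Cd3e had one in 3 day 6 lists and 0 embryonic lists, Rag1 in 1 day 6 list and 0 embryonic lists, and Cd4 in 2 day 6 lists and 4 embryonic lists. The part of thymocytes in the Vmn2r values was not tested.

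Of the promoters of the family, 1 had a called peak in every list, and it stood apart in its sequence. Promoter windows of 300 bases (250 before and 50 after a transcript start) were taken from RefSeq on GRCm38.p6, the assembly that mm10 names, and 118 windows matched 117 of the genes. The upstream start of Vmn2r29, at chr7:7278240-7278539 on the minus strand, held 23 CG dinucleotides and 62.3% G and C. The second start of Vmn2r29 lies 30961 bp away, at chr7:7247279-7247578 on the minus strand, and held 0 CG dinucleotides and 38.3% G and C. Its neighbour Vmn2r30 starts at chr7:7337444-7337743 on the minus strand, with 1 CG dinucleotide and 38.7% G and C. The upstream window is shown for the only promoter of the family called in all 10 lists, with CG dinucleotides in capitals, and the other windows for the form shared within the cluster, with the motif CCCNNGGG in capitals.
Vmn2r29 upstream start: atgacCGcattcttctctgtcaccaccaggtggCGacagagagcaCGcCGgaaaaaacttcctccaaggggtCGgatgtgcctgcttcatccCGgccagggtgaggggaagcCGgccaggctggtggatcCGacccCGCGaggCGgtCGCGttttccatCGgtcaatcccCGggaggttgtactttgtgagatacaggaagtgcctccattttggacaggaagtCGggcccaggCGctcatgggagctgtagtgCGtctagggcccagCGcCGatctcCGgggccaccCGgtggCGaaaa
Vmn2r29 second start: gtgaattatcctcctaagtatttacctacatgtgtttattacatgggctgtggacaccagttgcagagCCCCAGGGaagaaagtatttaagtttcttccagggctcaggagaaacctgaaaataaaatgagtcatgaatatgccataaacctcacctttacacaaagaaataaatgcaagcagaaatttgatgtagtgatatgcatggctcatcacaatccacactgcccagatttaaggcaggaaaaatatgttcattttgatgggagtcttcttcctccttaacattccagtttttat
Vmn2r30: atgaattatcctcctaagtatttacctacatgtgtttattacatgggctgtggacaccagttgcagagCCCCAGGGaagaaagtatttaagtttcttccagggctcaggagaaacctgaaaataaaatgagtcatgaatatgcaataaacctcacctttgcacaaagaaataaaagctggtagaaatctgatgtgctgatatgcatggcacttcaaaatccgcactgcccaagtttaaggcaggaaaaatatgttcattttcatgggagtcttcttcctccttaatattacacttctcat

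The windows of the second start of Vmn2r29 and of Vmn2r30 matched at 278 of 300 positions without gaps (92.7%). The 14 bases GAGCCCCAGGGAAG, which hold the motif, were found on either strand in 17 of the 118 windows of the family and in 17 of all 21263 protein-coding promoter windows (0.08%), so no other gene of the table had them. All 17 lay in the chromosome 7 cluster from Vmn2r29 to Vmn2r52. The broader motif CCCNNGGG, which reads the same on both strands and holds the core letters that EBF transcription factors recognise, stood in 23 windows of the family (19.5%), 1 Vmn1r window (0.485%), 29 olfactory receptor windows (3.06%) and 15.6% of all promoter windows. TATAAA, searched on both strands, stood in 22.9% of the windows of the family, 42.2% of Vmn1r windows, 41.0% of olfactory receptor windows and 12.6% of all windows. A match describes letters in a window and is not a bound site.

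The 117 windows other than the upstream start of Vmn2r29 held 4 or fewer CG dinucleotides. The median was 1 in the family, as in Vmn1r and olfactory receptor windows, against 13 over all promoter windows. Peaks touched 2 of the 118 windows (1.69%), both of Vmn2r29, against 65.1% of all promoter windows. They touched 2.43% of Vmn1r windows and 0.527% of olfactory receptor windows. The window of the second start of Vmn2r29 was touched in 1 list, mTEC4 replicate 1. Over all promoter windows with 4 or fewer CG dinucleotides, 14.4% had a peak in any list and 0.746% in all 10 lists. Over those with 20 or more, 97.9% had a peak in any list and 59.8% in all 10 lists.

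**Figure D1:**
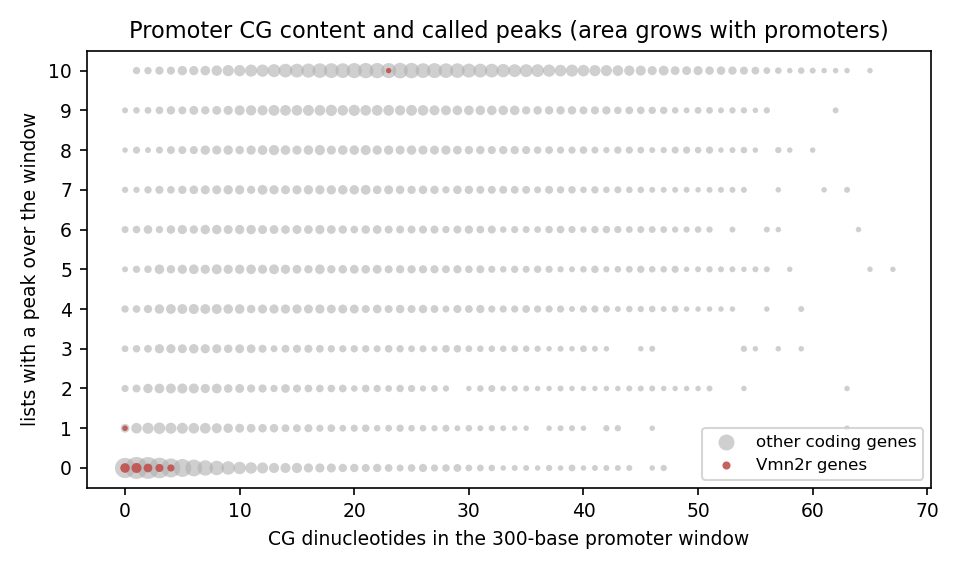
Each point places promoter windows by their number of CG dinucleotides (x axis) and by how many of the 10 lists have a peak over them (y axis), for Vmn2r genes in red and other coding genes in grey, with point area growing with the number of windows. The Vmn2r windows sit at 4 or fewer CG dinucleotides with 0 or 1 list, except the upstream start of Vmn2r29 at 23 CG dinucleotides and 10 lists.

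Across whole windows, the family carried more called peaks in day 6 lists than in embryonic lists, while protein-coding genes in general carried fewer. There were 127 and 77 peaks in Vmn2r windows in the mTEC4 lists, 143 and 81 in the mTEC1 lists and 104 and 28 in the mTEC2 lists, against 27 and 29 at E15 and 23 and 36 at E17. Every day 6 list but mTEC2 replicate 2 exceeded every embryonic list, and that list lay within the embryonic range. The density was 16.8 ± 7.36 peaks per Mb in day 6 lists (SD, n = 6) and 5.16 ± 0.976 in embryonic lists (SD, n = 4), or 0.0168 and 0.00516 peaks per kb, 3.25 times as many. Without mTEC2 replicate 2 the day 6 mean was 19.1 peaks per Mb. By fraction and age, the means were 18.3 per Mb in mTEC4, 20.1 in mTEC1 and 11.8 in mTEC2, against 5.03 at E15 and 5.29 at E17.

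Over the joined windows of all placed protein-coding genes, the density was 32.5 ± 9.20 peaks per Mb in day 6 lists and 59.2 ± 13.4 in embryonic lists (SD, n = 6 and 4). Relative to that density in the same list, the family stood at 0.846 and 0.431 in the mTEC4 lists, 0.817 and 0.428 in the mTEC1 lists and 0.382 and 0.234 in the mTEC2 lists. It stood at 0.0856 and 0.0957 at E15 and at 0.0872 and 0.0825 at E17. The groups did not overlap on this scale, on which mTEC2 replicate 2 also lay above every embryonic list. Vmn2r windows held 0.0685% to 0.181% of the peaks of a day 6 list, against 0.0237% to 0.0286% of an embryonic list.

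Set against the sequence between gene windows, which holds no placed coding gene or 10 kb flank, Vmn2r windows had a relative density of 0.716 ± 0.135 in day 6 lists and 0.209 ± 0.0248 in embryonic lists (SD, n = 6 and 4). The density between gene windows itself was 22.5 ± 7.47 peaks per Mb in day 6 lists and 25.4 ± 8.07 in embryonic lists. Other chemoreceptor families had like values. Vmn1r windows, of the receptors of apical vomeronasal neurons, averaged 18.1 ± 7.86 peaks per Mb in day 6 lists and 6.73 ± 2.17 in embryonic lists, and olfactory receptor windows 18.6 ± 7.98 and 9.36 ± 2.97. Windows of 86 ribosomal protein genes, used in every cell, had 85.4 ± 10.18 peaks per Mb in day 6 lists and 131.6 ± 13.1 in embryonic lists. No test was run of the family against these other families.

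**Figure D2:**
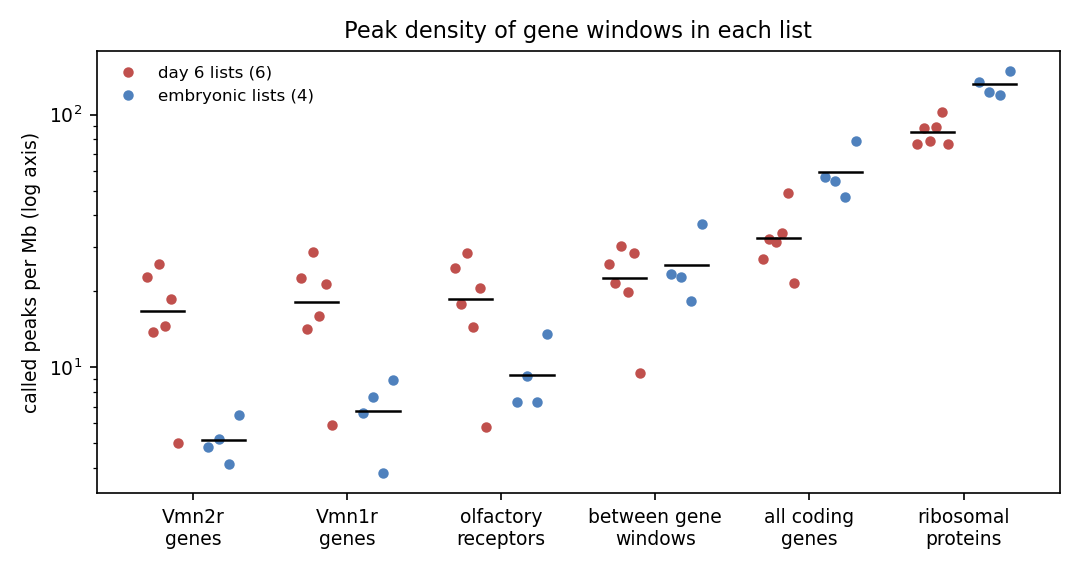
Called peaks per Mb of joined windows (log axis) in each list, day 6 lists in red and embryonic lists in blue, with a black line at each group mean. In Vmn2r, Vmn1r and olfactory receptor windows 5 of the 6 day 6 lists lie above every embryonic list, and in windows of all coding genes and of ribosomal protein genes the embryonic mean is the higher.

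The extra calls at day 6 were weak ones. The authors' −log10 q, the strength of a peak within its own list, had a median over Vmn2r peaks of 1.45 and 1.32 in the mTEC4 lists, 1.997 and 1.30 in the mTEC1 lists and 1.24 and 1.82 in the mTEC2 lists. The medians were 4.31 and 3.91 at E15 and 3.16 and 5.05 at E17, all above every day 6 list. No list holds a peak under a −log10 q of 1.0002, but the lowest Vmn2r values differed between lists. They were 1.81 in both E15 lists, 1.76 in E17 replicate 1, 1.02 in E17 replicate 2 and 1.02 to 1.11 in day 6 lists. Whether the lists share a lower limit is not known, and the medians were not adjusted for it. A −log10 q of 5 or more was reached by 1 to 8 Vmn2r peaks of a day 6 list (2.36% to 7.69%) and by 4 to 18 of an embryonic list (17.4% to 50%). Over all gene windows the shares were 9.42% to 18.8% in day 6 lists and 44.2% to 51.4% in embryonic lists. Between gene windows they were 3.02% to 7.62% and 36.0% to 42.4%. Peaks over all gene windows had a mean median of 2.14 ± 0.188 in day 6 lists and 4.78 ± 0.363 in embryonic lists, so lower −log10 q at day 6 was not limited to the family. The values belong to each list and depend on its unknown depth.

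Many day 6 peaks of the family shared a single low −log10 q. The commonest value was 1.30 in mTEC1 replicate 2, shared by 33 of 81 Vmn2r peaks (40.7%), and 1.09 in mTEC2 replicate 1, shared by 41 of 104 (39.4%). The same values were carried by 18.6% and 19.9% of the peaks over all gene windows of those lists. In mTEC1 replicate 1 the commonest value held 5.59% of the Vmn2r peaks, and in the embryonic lists it held 3.70% to 13.9%. Peak widths were alike, with a median of 92 to 155 bp in day 6 lists and 101 to 142 bp in embryonic lists.

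**Figure D3:**
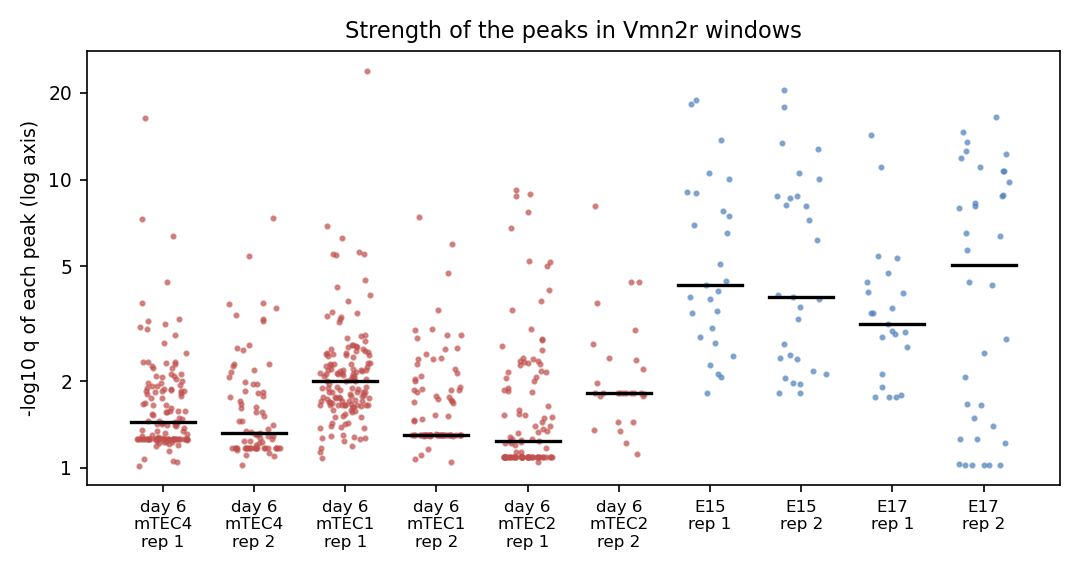
The −log10 q of every peak in Vmn2r windows (y axis, log scale), by list (x axis), with day 6 lists in red, embryonic lists in blue and a black line at the median of each list. The day 6 medians lie between 1.24 and 1.997 and the embryonic medians between 3.16 and 5.05, with rows of tied low values in most day 6 lists.

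The extra calls were also mostly not found in a second list. Of the Vmn2r peaks of a list, 10.58% to 39.3% overlapped a peak of the other list of the same group at day 6, against 44.4% to 70.4% in embryonic TEC. The mean share was 23.0% ± 11.4 at day 6 and 62.5% ± 12.2 in embryonic lists (SD, n = 6 and 4), and the 2 lists of a group share their overlaps. The number of peaks found in both lists of a group was much closer, with 18.3 ± 7.26 per day 6 list and 17.5 ± 1.73 per embryonic list. Peaks found in none of the 9 other lists numbered 49.0 ± 26.1 per day 6 list and 4.0 ± 2.16 per embryonic list. Their mean share was 49.0% and 13.4%, against 24.6% and 8.60% over all gene windows and 41.8% and 11.7% between gene windows. Over all gene windows, 44.0% ± 13.2 of peaks were found in the other list of the group at day 6, against 78.8% ± 15.9 in embryonic lists. Between gene windows that share was 24.6% at day 6 and 71.6% in embryonic lists. The values were 25.3% and 56.8% for Vmn1r genes and 24.8% and 66.5% for olfactory receptors.

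Joined over the lists, the Vmn2r peaks formed 426 regions, and 310 of them (72.8%) were called in 1 list, 294 in a day 6 list and 16 in an embryonic list. The share called in 1 list was 48.9% over windows of all coding genes, 62.3% between gene windows, 79.6% for Vmn1r genes and 67.9% for olfactory receptors. By age, 370 regions (86.9%) were called only in day 6 lists, 23 (5.40%) only in embryonic lists and 33 (7.75%) in both. The share called only in day 6 lists was 40.4% over windows of all coding genes and 63.2% between gene windows. It was 84.4% for Vmn1r genes and 79.1% for olfactory receptors. The share called only in embryonic lists was 32.2% over windows of all coding genes, 8.39% for Vmn1r genes and 11.5% for olfactory receptors. No region was called in all 6 day 6 lists and no embryonic list, against 75 of 188872 regions over windows of all coding genes. All 4 embryonic lists called 13 regions, against 47526 of those 188872. Of the 13, 12 were also called in at least 1 day 6 list. Among regions called in 1 list the median −log10 q was 1.40, and for the 3 regions called in all 10 lists the median of the highest value was 18.3.

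**Figure D4:**
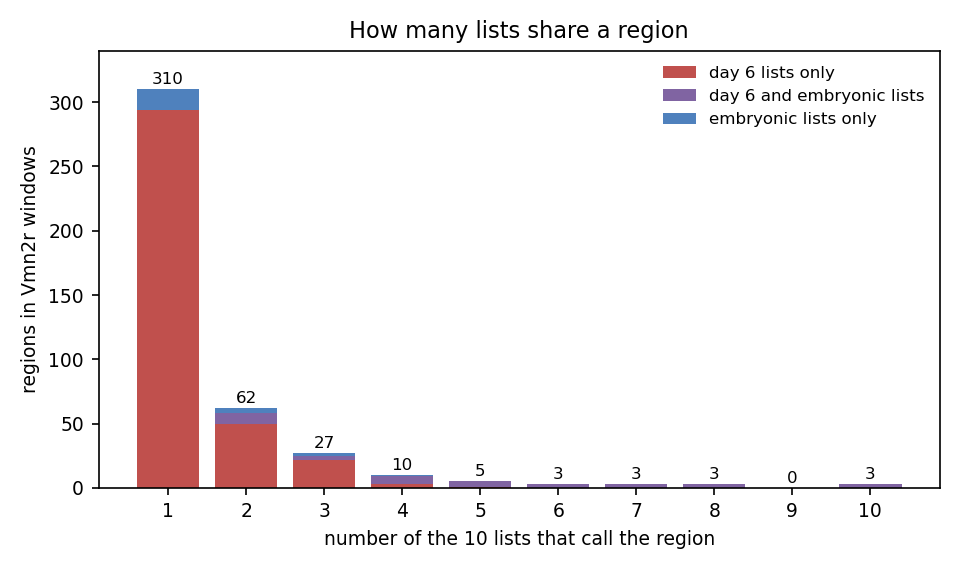
Number of joined regions in Vmn2r windows (y axis) by how many of the 10 lists call them (x axis), split into regions of day 6 lists only in red, of both ages in purple and of embryonic lists only in blue. Of 426 regions 310 are called in 1 list, and 3 are called in all 10.

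The 3 regions called in all 10 lists lay on chromosome 7. At the promoter of Vmn2r29 (chr7:7277662-7278540, over the printed upstream start) the −log10 q was 4.42 and 5.42 in the mTEC4 lists, 2.66 and 4.75 in the mTEC1 lists and 5.03 and 2.37 in the mTEC2 lists, against 7.75 and 8.10 at E15 and 5.35 and 10.7 at E17. The second region (chr7:7209484-7210226) was 2770 bp from Vmn2r29 and lay over an end of the zinc finger gene Zfp772, with 3.01 to 9.17 in day 6 lists and 11.1 to 18.3 in embryonic lists. The third (chr7:41393048-41393916) was 5816 bp from Vmn2r57 and lay over ends of AI987944 and Gm17102, with 1.92 to 7.70 in day 6 lists and 14.2 to 20.4 in embryonic lists. Of these, the Vmn2r29 promoter was the region within 1 kb of no other gene end.

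Other shared regions lay in pairs in the chromosome 6 cluster. Pairs were picked as regions of the same chromosome called in the same lists at like distances from a gene end. The shared lists and like distances given here were therefore set by that choice. A region inside Vmn2r21 (chr6:123513984-123514413) and one inside Vmn2r22 (chr6:123631205-123631596) were called in the same 8 lists, all but the mTEC4 lists, at 18993 and 19039 bp from the nearer gene end. In the mTEC1 lists their −log10 q values were 2.47 and 2.19 in Vmn2r21 and 2.47 and 2.58 in Vmn2r22, and in the mTEC2 lists 8.93 and 4.41 in Vmn2r21 and 8.79 and 4.41 in Vmn2r22. In E15 they were 9.06 and 12.8 in Vmn2r21 and 10.56 and 10.04 in Vmn2r22. A second pair, 6503 bp from Vmn2r20 (chr6:123424564-123424705) and 6504 bp from Vmn2r21 (chr6:123539910-123540056), was called in the same 7 lists, over the small RNA genes Gm22833 and Gm22722. The treatment of reads that match both copies is not known, so the copies of each pair are uncertain.

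The clusters differed in how the ages compared. The chromosome 6 cluster, Vmn2r19 to Vmn2r27, had 21.3 ± 7.33 peaks per Mb in day 6 lists and 19.7 ± 4.17 in embryonic lists (SD, n = 6 and 4), and the groups overlapped. The chromosome 7 cluster from Vmn2r65 to Vmn2r79 had 8.70 ± 4.44 peaks per Mb in day 6 lists, with at least 1.68 in each, and none in any embryonic list. The 22 genes from Vmn2r90 to Vmn2r110 on chromosome 17 had 12.4 ± 8.01 in day 6 lists and 2.12 ± 0.903 in embryonic lists, and every day 6 list lay above every embryonic list. The cluster from Vmn2r111 to Vmn2r117 had 18.3 ± 14.1 in day 6 lists and no peak in any embryonic list, with 0 in mTEC2 replicate 2. The 24 genes from Vmn2r29 to Vmn2r52 had 19.99 ± 8.32 in day 6 lists and 4.998 ± 1.83 in embryonic lists. The conserved group Vmn2r1 to Vmn2r7 on chromosome 3 had 17.8 ± 9.51 in day 6 lists and 3.81 ± 3.28 in embryonic lists. Vmn2r88 and Vmn2r89 on chromosome 14, Vmn2r28 and the X-linked Vmn2r121 had no peak in any list. These differences between clusters were not tested.

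**Figure D5:**
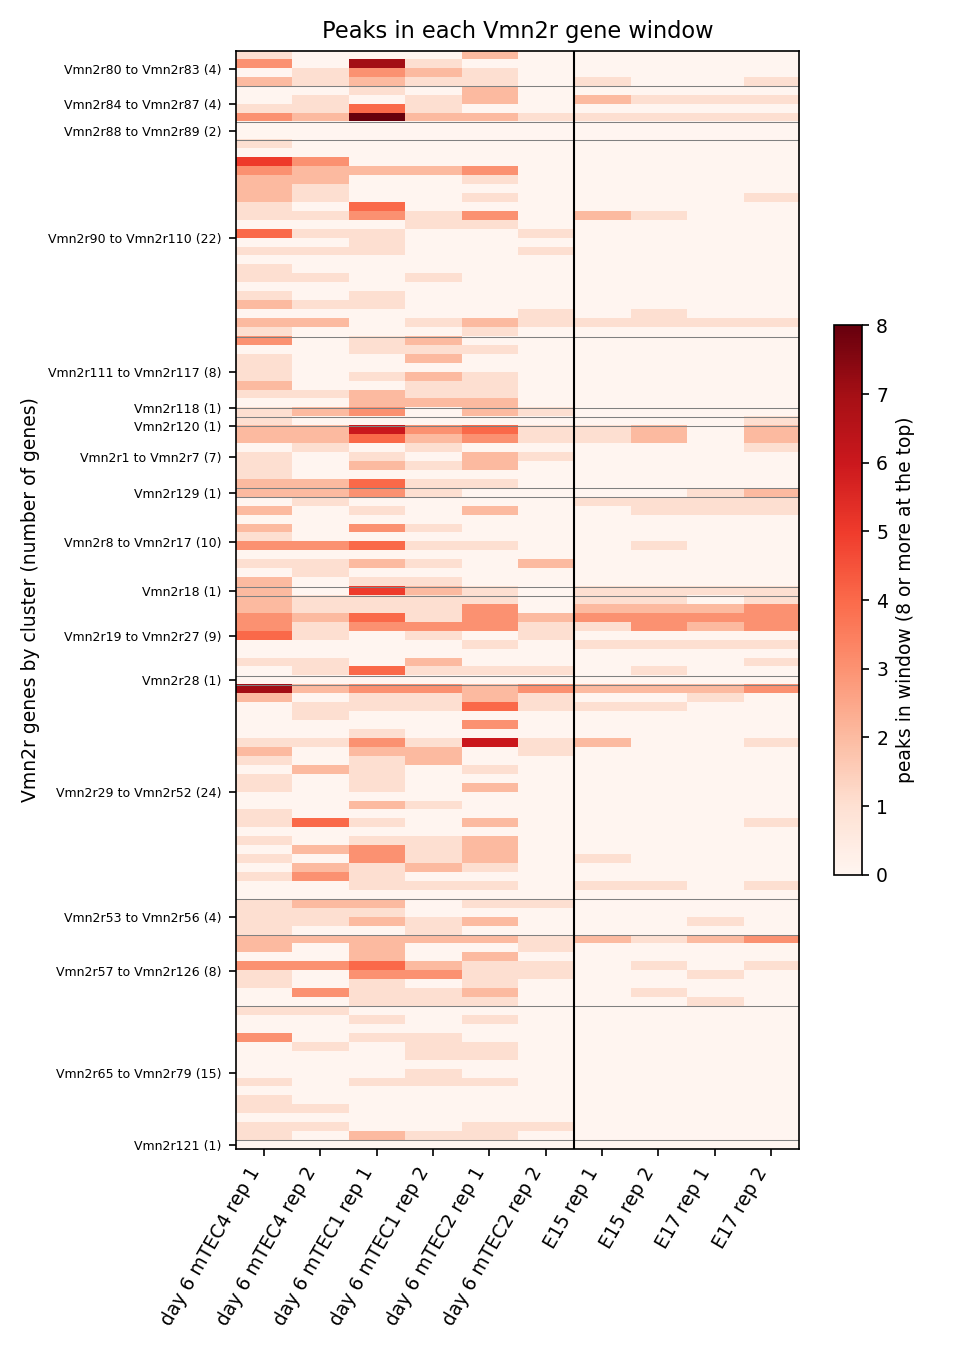
Peaks in the window of each of the 123 placed Vmn2r genes (rows, grouped by cluster, number of genes in brackets) in each list (columns, day 6 left of the line and embryonic right of it), darker for more peaks. The embryonic columns are empty in most rows, with the chromosome 6 cluster from Vmn2r19 to Vmn2r27 and Vmn2r29 among the filled ones.

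Gene by gene, 97 of the 123 placed genes (78.9%) had a higher mean number of peaks in day 6 lists and 9 (7.32%) a lower one, against 19.4% and 77.0% of all placed protein-coding genes. Without mTEC2 replicate 2, 97 genes were still higher and 8 lower. The scale matters for the background, since per 100000 listed peaks 82.1% of the family and 44.6% of all genes had the higher mean at day 6, and 4.07% and 52.0% the lower. Of the 123 genes, 87 (70.7%) had no peak in any embryonic list, against 11.5% of all genes, and 17 (13.8%) had none in any day 6 list, against 4.73% of all genes. Those 17 had no peak in any list, against 3.46% of all genes. In the other chemoreceptor families, no embryonic list had a peak for 81.2% of Vmn1r genes and 73.4% of olfactory receptor genes. No day 6 list had one for 29.7% and 31.2%. Peaks were called in day 6 lists alone for 70 Vmn2r genes, in both ages for 36 and in embryonic lists alone for 0. Of all genes, 8.02% had peaks in day 6 lists alone and 1.28% in embryonic lists alone. Vmn2r87, Vmn2r21, Vmn2r22, Vmn2r29 and Vmn2r57 had a peak in all 10 lists.

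The number of peaks in each gene window was compared between 6 day 6 and 4 embryonic lists by an exact two-sided permutation test over the 210 ways to choose the lists, with Benjamini-Hochberg adjustment over the 21026 protein-coding genes with a peak in any list. The percent called over all these genes was 0.119% higher and 13.5% lower at day 6. Of the 106 Vmn2r genes tested, 0 were called higher and 0 lower at an adjusted p under 0.05. An unadjusted p under 0.05 was reached by 5 higher (4.72%) and 2 lower (1.89%), against 1.06% and 38.8% of all tested genes. In 0 Vmn2r genes did every day 6 list exceed every embryonic list, or fall below every one, against 0.195% and 15.9% of all tested genes. The smallest p that the arrangements can give is 0.00476, and 2003 genes must reach it before it can pass the adjustment. Per 100000 listed peaks no gene of the genome was called in either direction (0.0% called). On that scale 10 Vmn2r genes higher and 2 lower had an unadjusted p under 0.05. The share over all genes was not computed on that scale, so these counts cannot be set against the genome and no result is drawn from them. The median difference, day 6 minus embryonic, was 0.667 peaks per gene over the 106 tested Vmn2r genes and −1.25 over all tested genes.

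The smallest adjusted p of the family, 0.095 in this exact permutation test, was that of Vmn2r118, which had 1 and 2 peaks in the mTEC4 lists, 3 and 0 in the mTEC1 lists, 2 and 1 in the mTEC2 lists and 0 in each embryonic list. Vmn2r116, the receptor of the male tear peptide ESP1, had 1 and 1, 2 and 1, and 1 and 0 peaks in the mTEC4, mTEC1 and mTEC2 lists and 0 in each embryonic list (exact permutation, unadjusted p = 0.0429, adjusted p = 0.113). Vmn2r92, Vmn2r15 and Vmn2r53, chosen here because their unadjusted p was under 0.05, likewise had a peak in 5 of 6 day 6 lists and 0 of 4 embryonic lists. In the other direction, Vmn2r24 had 1 peak in 1 day 6 list, mTEC2 replicate 1, and 1 in each embryonic list (exact permutation, adjusted p = 0.119). Vmn2r8, singled out for the same reason, had 1 peak in 1 day 6 list, mTEC4 replicate 2, and 1 in each embryonic list.

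Vmn2r29 had 7 and 2 peaks in the mTEC4 lists, 3 and 3 in the mTEC1 lists and 2 and 3 in the mTEC2 lists, against 2 and 2 at E15 and 2 and 3 at E17. The day 6 mean was 3.33 ± 1.86 and the embryonic mean 2.25 ± 0.5, and the groups overlapped (exact permutation, adjusted p = 0.539). It was the only Vmn2r gene with a peak within 1 kb of an end in all 10 lists, a share of 0.813% against 35.8% of all genes. A peak at an end in any list was found for 16 Vmn2r genes (13.0%), 18.3% of Vmn1r genes and 11.4% of olfactory receptor genes, against 76.2% of all genes. Of the other 15 Vmn2r genes, Vmn2r4 had one in 3 lists and the rest in 1 or 2.

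Among the conserved receptors, Vmn2r1 had 2 and 2 peaks in the mTEC4 lists, 6 and 3 in the mTEC1 lists and 4 and 1 in the mTEC2 lists, against 1 and 2 at E15 and 0 and 2 at E17. Its span contains that of Vmn2r2, so peaks inside Vmn2r2 count for both. A region inside Vmn2r1 (chr3:64173570-64173696) was called in 7 lists, with a −log10 q of 2.06 to 3.54 in 4 day 6 lists and 8.77 to 12.2 in 3 embryonic lists. Vmn2r4 carried the strongest Vmn2r peak of any list, at chr3:64414417-64414495, 825 bp from the gene end. That region reached a −log10 q of 16.4 in mTEC4 replicate 1, 23.9 in mTEC1 replicate 1 and 8.08 in mTEC2 replicate 2, with widths of 74, 67 and 79 bp. It was called in neither the other list of those groups nor any embryonic list.

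Vmn2r87 had the highest mean density of the family, 0.0483 peaks per kb, with 3 and 2 peaks in the mTEC4 lists, 8 and 2 in the mTEC1 lists, 2 and 1 in the mTEC2 lists and 1 in each embryonic list. The embryonic peak lay 1082 bp from the gene over the pseudogene Gm18755 (chr10:130470199-130470739), with a −log10 q of 4.74 to 8.83, and the region was called at 1.13 and 1.81 in the mTEC2 lists. Vmn2r21 and Vmn2r22, also among the 6 of highest density, had 2.50 ± 1.05 and 2.33 ± 1.03 peaks in day 6 lists and 3.0 ± 0 and 2.25 ± 0.957 in embryonic lists (SD, n = 6 and 4). Vmn2r20 averaged 1.33 ± 1.03 in day 6 lists and 2.25 ± 0.5 in embryonic lists. Vmn2r129 averaged 1.33 ± 1.21 in day 6 lists and 0.750 ± 0.957 in embryonic lists, around the shortest span of the family (8397 bp). For none of these 5 genes was the adjusted p of the exact permutation test under 0.05, and their groups overlapped.

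Vmn2r18 held the 1 region called in all 4 embryonic lists and no day 6 list (chr5:151572237-151572907), with a −log10 q of 4.46 and 3.28 at E15 and 2.11 and 8.30 at E17. Vmn2r109 held a region called in 8 lists at low strength (chr17:20548479-20548714), with a −log10 q of 1.23 to 3.39 in 4 day 6 lists and 1.03 to 2.84 in the embryonic lists. Vmn2r26, a receptor for peptides of major histocompatibility complex class I, had 1 and 1 peaks in the mTEC4 lists, 0 and 2 in the mTEC1 lists and none in the mTEC2 lists, against none at E15 and 0 and 1 at E17. Vmn2r102, Vmn2r25 and Vmn2r82 were the longest genes with no peak inside the span in any list, of 47 such genes (38.2% of the family, against 16.3% of all genes). The share was higher in the other chemoreceptor families, 89.1% of Vmn1r genes and 94.0% of olfactory receptor genes. The median span was 24544 bp in the family and 17217 bp over all protein-coding genes. The windows of Vmn2r102 and Vmn2r25 held no peak at all, and that of Vmn2r82 held 1 to 3 flanking peaks in 4 day 6 lists and none in embryonic lists.

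The genes with which the receptors work in vomeronasal neurons had lower counts at day 6 at the median, as genes in general did. Of 22 such genes, 19 had a peak in any list, and 0 were called higher and 1 lower at day 6, the homeobox gene Emx2, against 0.119% and 13.5% of all tested genes. The median difference was −1.92 peaks over the 19 genes and −1.25 over all tested genes. Trpc2, the transduction channel, had 1 and 3, 1 and 1, and 2 and 0 peaks in the mTEC4, mTEC1 and mTEC2 lists, against 3 and 1 at E15 and 4 and 5 at E17 (exact permutation, adjusted p = 0.164). Omp, the olfactory marker protein of mature sensory neurons, averaged 1.0 ± 0.632 peaks in day 6 lists and 3.0 ± 0.816 in embryonic lists (SD, n = 6 and 4; exact permutation, adjusted p = 0.0504). Neither gene had a peak within 1 kb of an end in any list, whereas Gnao1, the G protein subunit, had one in 5 of 6 day 6 lists and 4 of 4 embryonic lists. Gnao1 had 3 to 8 peaks in its window in day 6 lists and 8 to 16 in embryonic lists (exact permutation, adjusted p = 0.0638). Among 5 other class C receptors, 0 were called higher and 1 lower, the calcium-sensing receptor Casr, against the same 0.119% and 13.5% of all tested genes.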

How the data were processed

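The tools named in the submitters' processing notes are Bowtie2, MACS2, Picard and cutadapt, with build mm10. Their versions, order and multi-mapping settings, and any transposase shift, are not given in the sources used here. Each library has 1 broad peak list, deposited by the authors with a fold enrichment (ratio to the caller's local background), a −log10 p and a −log10 q for each peak. The deposited score of each peak was not used. Read depth is unknown.

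Peaks overlapping a window by 1 bp or more were counted with Python 3.11.15, numpy 2.4.6 and pandas 2.3.3. Gene positions came from a RefSeq table of mm10. Of 21887 protein-coding genes, 108 with scaffold coordinates (below 3000000) were left out, a choice made after seeing the data. Clusters were genes less than 1 Mb apart. Ribosomal protein genes exclude kinases and binding proteins with like symbols. The counting was checked against direct counts of the peaks of E15 replicate 1. The exact permutation test was run on simulated counts with many more changed genes than the family holds. That run does not show what the test could call in the family alone. The members and lists were chosen with earlier results of these data known. Named genes were Vmn2r1, Vmn2r26 and Vmn2r116, the 6 of highest density, those with an end peak in 3 or more lists, the 3 longest with no peak inside, those with the strongest span peak of a list, those with a region in 8 or more lists, and those past the test. Alternatives changed the window, the −log10 q, the list length, the scale, the overlap, the filter, the block and the lists used.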

Additional observations from a re-analysis of the deposited data

Results flagged for a closer look

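Of 37 sets of values looked at, 7 held a list far from the others of its age. For continuous values chance gives that in about 1 in 20 sets. Sets of small counts are always flagged when a single list differs from otherwise equal ones. The number flagged therefore does not measure an excess over chance. The share of Vmn2r peaks with a −log10 q of 5 or more was 17.4% in E17 replicate 1, against 44.4% to 50% in the other embryonic lists. Vmn2r29 had 7 peaks in mTEC4 replicate 1, against 2 to 3 in the other day 6 lists. Vmn2r87 had 8 peaks in mTEC1 replicate 1, against 1 to 3 in the other day 6 lists. Vmn2r24 had 1 peak in mTEC2 replicate 1 and 0 in the other day 6 lists. In E17 replicate 2, the longest list, Vmn2r20 had 3 peaks, Vmn2r29 had 3 and Vmn2r26 had 1, against 2, 2 and 0 in each other embryonic list.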

How the results depend on the processing

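The higher day 6 density of the family, a difference of 11.6 peaks per Mb, depended on weak peaks. It was 1.08 with peaks of a −log10 q of 2 or more and turned to −1.42 with 5 or more, was 5.41 with every list shortened to the shortest, 17.7 per 100000 listed peaks and 1.84 bases covered per kb. It ranged from 9.81 to 13.9 with each list left out in turn. Relative to all gene windows the difference, 0.435, was 0.214 at a −log10 q of 2 or more, 0.0677 at 5 or more, and 0.371 to 0.493 with each list left out. The share found in the other list of the group differed by −39.5 percentage points, by −57.2 with shortened lists, by −74.6 at 5 or more, where day 6 lists kept 1 to 8 peaks, and by −44.9 to −34.0 with each list left out.

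The count of Vmn2r genes called lower, 0, was 1 at a −log10 q of 2 or more (Vmn2r8; 51.6% of all genes called lower) and 6 at 5 or more (Vmn2r1, Vmn2r2, Vmn2r19, Vmn2r24, Vmn2r29 and Vmn2r87; 70.4% of all genes). With each list left out, 0 to 1 were called higher and 0 to 1 lower; without mTEC2 replicate 1 these were Vmn2r15 and Vmn2r24 (0.186% of all genes called higher and 23.6% lower), and in the other 9 cases no gene of the genome was called, since too few genes reached the smallest p. The cause of these changes was not tested.

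Of 13 named genes tested, none was called in the report, and some changed sign. Of those listed here, Vmn2r1, Vmn2r29 and Vmn2r87 were called with the changed sign at a −log10 q of 5 or more. At a −log10 q of 5 or more the differences were −0.75 for Vmn2r1, −1.33 for Vmn2r22, −1.33 for Vmn2r29 and −0.75 for Vmn2r87. At 2 or more they were −0.917 for Vmn2r22, −0.0833 for Vmn2r26 and −0.333 for Vmn2r87. With the span alone they were −0.167 for Vmn2r109, −0.333 for Vmn2r22 and −0.0833 for Vmn2r26, and with 2 kb flanks −0.167 for Vmn2r109 and −0.333 for Vmn2r22. Vmn2r21 turned to 0.333 with shortened lists and 0.714 per 100000 listed peaks. Vmn2r22 ranged from −0.333 to 0.35 with each list left out.

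With the replicate number as a block, 0 Vmn2r genes were called in either direction and the density difference stayed 11.6, but no gene of the genome can be called there unless 4206 reach its smallest p of 0.01. Same-numbered lists deviated together (a correlation over 0.1) in 1 of 10 pairs of groups, mTEC4 and mTEC1 (0.32). The 10 correlations ran from −0.21 to 0.32. The labels give same-numbered lists only a shared number, and a shared batch was not tested. Without read depth, a missing peak cannot be told from a shallow library.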
